A study of Mus musculus with 3 samples.

Results

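The replication-dependent histone genes of the mouse were described in RNA bound to chromatin of bone-marrow-derived macrophages. Members were the genes whose symbol begins with Hist, a cluster number from 1 to 4 and the letter h, and that have a protein-coding transcript, and they numbered 67 of 55536 annotated genes. A further 3 genes matched the symbol pattern (Hist3h2bb-ps, Hist1h2aj and Hist1h2al) and were left out as pseudogenes. By cluster, 54 members belong to Hist1 on chromosome 13, 10 to Hist2 on chromosome 3, 2 to Hist3 on chromosome 11 and 1 to Hist4 on chromosome 6. By type, 6 encode the linker histone H1, 18 encode H2A, 18 encode H2B, 12 encode H3 and 13 encode H4.

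The cells were primary macrophages of strain C57BL/6J, given lipid A at 100 ng/ml for 20 min, where lipid A is the part of bacterial lipopolysaccharide that activates TLR4. RNA of the chromatin fraction was depleted of ribosomal RNA and sequenced in 3 libraries of 1 group, made from 1000, 250 and 500 ng of RNA in replicates 1, 2 and 3. The labels give 3 biosamples with 1 donor entry, do not say whether separate animals were used, and record neither sex nor age. No untreated cells are part of the series as used here, so levels are reported and no response to lipid A.

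Replication-dependent histone genes supply the proteins that package newly made DNA, and they are known for high expression in S phase and low expression outside it. H2A, H2B, H3 and H4 form the nucleosome core, and H1 binds the linker DNA between nucleosomes. Their mRNAs carry no poly(A) tail. The mature mRNA ends shortly after a stem-loop that the protein SLBP binds, where the longer pre-mRNA is cleaved, guided by the U7 snRNP. Some of these genes are also known to give longer, polyadenylated mRNAs in cells that have stopped dividing.

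The stem-loop was searched in the annotated transcripts because the deposited models differ in how far they run past it, and it was found after the coding sequence of 44 of 67 members. The search took a stem of 6 base pairs that begins with GG and ends with CC, allowing G-T pairs, around a loop of 4 bases that begins with TT. It lay 24 to 61 bases after the last coding base, stop codon included, with a median of 34. The same pattern was present anywhere in the transcripts of 411 of 21901 protein-coding genes, or 1.88%. All 6 forms seen among the members are shown with 1 gene each and 5 bases on either side, as DNA letters from the GENCODE M21 transcripts, with the stem-loop in capitals.
Hist3h2a: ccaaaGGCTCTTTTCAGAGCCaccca
Hist1h3e: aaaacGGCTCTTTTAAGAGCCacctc
Hist2h2ac: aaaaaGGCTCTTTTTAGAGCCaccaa
Hist1h4c: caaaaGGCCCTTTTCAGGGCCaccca
Hist2h4: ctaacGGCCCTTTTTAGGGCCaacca
Hist1h4j: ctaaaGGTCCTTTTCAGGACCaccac
The form shown for Hist3h2a was shared by 26 members, that of Hist1h4c by 7, that of Hist1h3e by 6, those of Hist2h4 and Hist1h4j by 2 each, and that of Hist2h2ac by Hist2h2ac alone. The stem divided the members by type. GGCTCT began the stem in the 33 H1, H2A, H2B and H3 members that had one, and GGCCCT or GGTCCT began it in the 11 H4 members that had one. No stem-loop was found in 23 members. Among their transcript models, 15 end with the stop codon, so the region that would hold a stem-loop is not in the model.

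The members were low on macrophage chromatin. Levels per length are given in TPM, in which a gene's counts are divided by its effective length, the number of positions at which a fragment can start, and scaled so that every library has the same sum. The median TPM over the 67 members was 0.72, 1.05 and 1.17 in replicates 1, 2 and 3, a mean of 0.98 ± 0.233 (SD, n = 3). The median over 22028 protein-coding genes was 0.410 ± 0.157, and 6870 of those genes had no count in any library. In the second set of tables, made by the authors from the reads without an alignment file, the order was the other way round in each library. There the median TPM was 1.04, 1.11 and 1.38 over the members and 1.42, 1.29 and 2.40 over protein-coding genes in replicates 1, 2 and 3. In the main tables, at or above 1 TPM in every library were 22 of 67 members, against a background of 40.6% of protein-coding genes. In a bulk sample, fewer cells in S phase and less RNA per cell cannot be told apart.

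In counts, the members held 1457.33, 1260.16 and 1513.67 expected counts in replicates 1, 2 and 3, of library totals of 16317439, 16245280 and 12439931. These were shares of 0.00893% (95% Wilson interval 0.00848 to 0.00940), 0.00776% (0.00734 to 0.00820) and 0.0122% (0.0116 to 0.0128). Replicate 3 was the highest and its interval did not overlap those of the other libraries. Without Hist3h2a, the member with the most counts, the shares were 0.00722%, 0.00652% and 0.00786%. The intervals of replicates 1 and 3 then overlapped, while those of replicates 2 and 3 did not. Of the counts of protein-coding genes alone, the shares without Hist3h2a were closer, at 0.0113%, 0.0113% and 0.0118% in replicates 1, 2 and 3. Intervals and floors cover counting error only. Up to 3 counts may lie behind a count of 0. In CPM, the unit in which a gene's counts are divided by all counts of its library and not by its length, this limit was 0.184, 0.185 and 0.241 in replicates 1, 2 and 3. Of 22028 protein-coding genes, 9032 had 3 counts or fewer in every library, and 6870 had none. Of the 67 members, 12 had 3 counts or fewer in every library, and 3 of these, Hist1h2aa, Hist1h2ba and Hist1h2ah, had none. The place of others at this floor depends on the quantification, since in the second set of tables Hist1h2bh had 20.2, 20.2 and 13.0 estimated counts and Hist1h2bf 21.8, 12.8 and 9.95. Hist1h2aa and Hist1h2ba encode H2A and H2B proteins known from the testis.

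Facts of the libraries that bear on these values are as follows. Of 12 macrophage markers 11 were at or above 1 TPM in every library, and their median was 51.2 ± 3.75 TPM. The same held for 0 of 8 markers of neutrophils and their precursors, 1 of 6 of erythroid precursors, 0 of 4 of B cells, 0 of 4 of T and NK cells, 1 of 4 of stem and progenitor cells and 0 of 4 of fibroblasts. Gm26917, Gm42418 and CT010467.1, which carry ribosomal RNA sequence, held 15.3%, 26.0% and 10.8% of the counts in replicates 1, 2 and 3 together. These counts are in the denominator of TPM and CPM, and their part in the differences between libraries was not tested. Protein-coding genes summed to 158016, 180476 and 247024 TPM in replicates 1, 2 and 3. Among those with a mean of at least 10 counts, 86.9% had their highest TPM in replicate 3. Of the 32 members with that mean, 24 did.

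By type, H4 genes were the highest per length and H2B genes the lowest. The median TPM of the 13 H4 genes was 1.68, 2.31 and 2.19 in replicates 1, 2 and 3 (2.06 ± 0.335, SD, n = 3). That of the 6 H1 genes was 0.945, 1.55 and 1.24 (1.24 ± 0.30). H4 was above H1 in each library. H2A genes had a median of 1.07 ± 0.347, H3 genes of 1.05 ± 0.405 and H2B genes of 0.573 ± 0.155. H1, H2A and H3 lay within their spread of each other, and H2B was the lowest type in each library. In counts the order was another. The median count of H1 genes was 39.8, 39.6 and 31.6 in replicates 1, 2 and 3. That of H4 genes was lower, at 18.6, 17 and 17.4. H2B had the lowest median count only in replicate 3, at 2.845. In the second set of tables the medians were 1.87 TPM for H4, 1.21 for H1, 1.08 for H2A, 0.929 for H2B and 0.783 for H3, so H4 was again the highest while H3 was the lowest. At or above 1 TPM in every library were 8 of 13 H4, 7 of 18 H2A, 3 of 12 H3, 2 of 6 H1 and 2 of 18 H2B genes. These are descriptions of genes that share sequence, as set out further on, and carry no test.

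**Figure D1:**
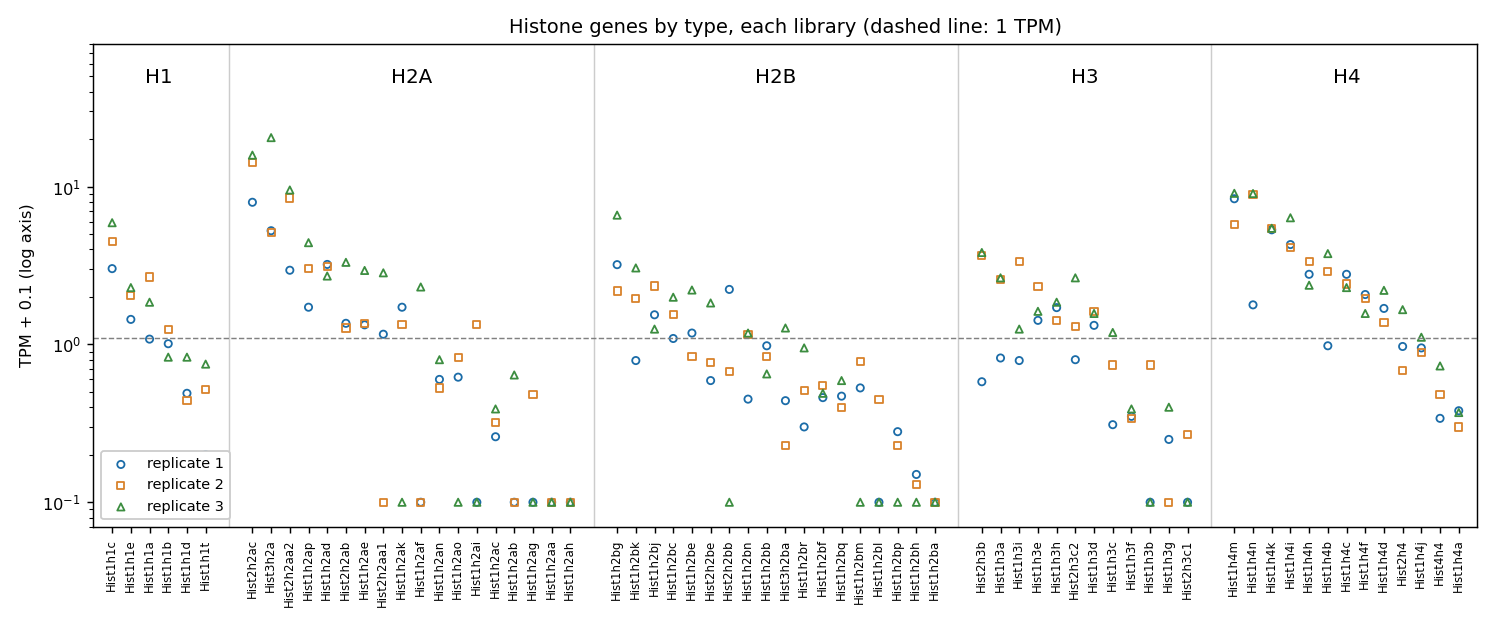
TPM + 0.1 on a log axis for each of the 67 histone genes, ordered within its type by mean TPM, with 1 symbol per library. Points at the bottom are values of 0, and the dashed line marks 1 TPM. H4 genes mostly lie above the line, and H2A genes span the widest range, from Hist2h2ac to 2 genes with no count.

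Among the linker histones, Hist1h1c was the highest, with 111.26, 122.18 and 105.72 expected counts and 2.92, 4.38 and 5.80 TPM in replicates 1, 2 and 3. Its counts were close in the 3 libraries while its TPM was lowest in replicate 1. Hist1h1e followed by mean, with 1.34, 1.95 and 2.19 TPM. Hist1h1a, with 0.98, 2.57 and 1.75 TPM, was close to it and above it in replicate 2. Of the 31-base words of Hist1h1e, 24.5% also occur in Hist1h2be, an H2B gene that overlaps it on the same strand. Hist1h1d, the second of the H1 genes by counts, had 79.1, 52.18 and 73 counts but only 0.39, 0.34 and 0.73 TPM, because its model is 7425 nt long. Hist1h1t, the testis H1, was the lowest, at 2, 6 and 6 counts.

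Among the core histones, Hist2h2ac, which encodes an H2A, had the highest mean TPM of all members. It had 72, 81.99 and 60 counts and 7.85, 14.07 and 15.71 TPM in replicates 1, 2 and 3. The counts did not follow the TPM. Its effective length was 330, 275 and 275 bases, and TPM was highest in replicate 3 for most protein-coding genes, as given above. Of the H4 genes, Hist1h4m led with 8.27, 5.67 and 8.96 TPM, Hist1h4i had 4.19, 4.03 and 6.24 TPM, and Hist1h4a was the lowest at 0.28, 0.20 and 0.27 TPM. Of the H2B genes, Hist1h2bg led with 3.10, 2.08 and 6.49 TPM, and of the H3 genes Hist2h3b had the highest mean, with 0.48, 3.54 and 3.72 TPM. In replicate 1 it was below Hist1h3h, at 1.61 TPM, and in the second set of tables its mean of 1.41 TPM was below the 1.72 of Hist1h3d, the 1.66 of Hist1h3e and the 1.53 of Hist1h3a. Replicate 1 was far below the others for Hist2h3b, whose counts were 3.98, 18.27 and 12.61. Every 31-base word of Hist2h3b also occurs in Gm20628, an antisense gene across it, and no source used here says whether strand was used in counting, so their reads cannot be told apart.

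By cluster, Hist1 held most counts and Hist3 varied most. Hist1 lies on chromosome 13 between 21715763 and 23934851 in mm10. Its 54 genes summed to 57.4, 49.4 and 56.5 CPM in replicates 1, 2 and 3 (54.5 ± 4.36, SD, n = 3), or 58.2 ± 10.1% of the members' counts. Along the chromosome these genes fall into 4 blocks separated by more than 100000 bp. The block of 29 genes from Hist1h4h to Hist1h1a had 39.8 ± 3.65 CPM, the block of 18 genes from Hist1h2bl to Hist1h2br had 10.3 ± 0.691 CPM, the block of 5 genes from Hist1h2ah to Hist1h2bj had 4.36 ± 0.494 CPM, and the 2 testis genes had none. The median TPM of the genes in the block of 29 was 0.88, 1.26 and 1.52 in replicates 1, 2 and 3, and in the block of 18 it was 0.605, 1.095 and 0.79. The block of 29 was higher in each library, also in the second set of tables, and no test was run.

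The 10 genes of Hist2, between 96219865 and 96270132 on chromosome 3, summed to 13.4, 14.4 and 19.8 CPM (15.9 ± 3.41, SD, n = 3). The 95% Wilson interval of replicate 3, 17.5 to 22.4 CPM, lay above those of replicates 1 and 2, which ended at 15.3 and 16.4. Hist4h4, on chromosome 6, had 1.41 ± 0.388 CPM. The median of log2(TPM + 0.1) in Hist2 minus that in Hist1 was 0.40, -0.27 and 1.21 in replicates 1, 2 and 3, a mean of 0.44 with an SD of 0.74. The sign was not the same in the 3 libraries, so a difference per gene did not exceed the spread between libraries. With members of 10 or more counts in a library, the mean difference was -0.43. A sign-flip test over 3 libraries could not go below p = 0.25 (exact, two-sided), and none was run.

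Hist3h2a, an H2A gene at 58954685 to 58956830 on the plus strand of chromosome 11, held 23.5 ± 10.4% of the members' counts by itself. It had 280, 201.24 and 535.58 counts in replicates 1, 2 and 3, which are 17.2, 12.4 and 43.1 CPM. Its TPM was 5.15, 4.99 and 20.31. Replicate 3 was 2.91 times the mean of the other libraries in CPM. Of 7585 protein-coding genes with a mean of at least 100 counts, 9, with Hist3h2a among them, had a ratio that high or higher, with a median of 1.17 and a 95th percentile of 1.71. The gene was singled out after its values were seen. In the second set of tables the TPM was 5.99, 4.23 and 18.5, in which replicate 3 was again the highest.

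Hist3h2a begins at the same base as Trim17, which encodes a ubiquitin ligase and runs on along the same strand, and 32.1% of the 31-base words of Hist3h2a occur in Trim17. Trim17 had 11.0, 6.77 and 20.7 CPM, and was also highest in replicate 3. The other Hist3 member, Hist3h2ba, had 0.245, 0.0616 and 0.482 CPM, from 4, 1 and 6 counts. Across protein-coding genes with a mean of at least 10 counts, replicate 3 had the highest CPM in 63.1%, and among the 32 members with that mean it had the highest CPM in 14. How reads in the sequence that Hist3h2a and Trim17 share were divided was not tested.

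**Figure D2:**
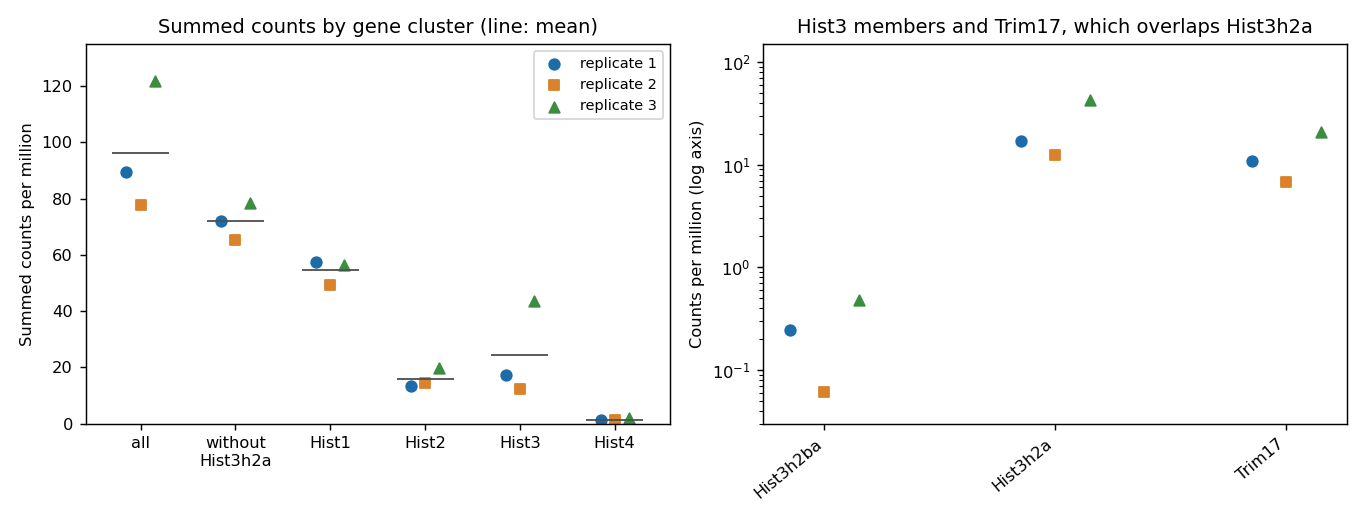
Left, summed CPM of the members by gene cluster in each library, with the mean as a line; right, CPM on a log axis of both Hist3 members and of Trim17, which overlaps Hist3h2a. Replicate 3 is the highest in every sum shown but Hist1, and its gap to the other libraries is largest in Hist3 relative to their level.

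Most of the members' counts were assigned to transcript models that run past the stem-loop. The 22 members with a model ending within 100 bases after the stem-loop held 20.6%, 24.9% and 15.3% of the members' counts in such models in replicates 1, 2 and 3 (20.3 ± 4.82%). The 22 members with a model that extends more than 100 bases past it held 63.5%, 58.4% and 69.6% (63.8 ± 5.57%), and 52.8 ± 2.17% when Hist3h2a was left out. The longer models were ahead in each library. Most members have only 1 protein-coding model, so the split shows which genes have long models and not a choice between models of a gene. The classes hold protein-coding models only, and counts on other transcripts of the members stay in the total. Models with no stem-loop that end within 100 bases of the coding sequence held 6.44 ± 2.14% in 20 members, and longer models with none held 5.29 ± 0.376% in 6 members. Per length the order was not the same. The median TPM was 1.54 ± 0.567 over the genes with a model that ends near the stem-loop and 1.17 ± 0.321 over those with a model that extends past it, which overlap. These are TPM of whole genes, with all their transcripts, and not of the models. The tables give counts per transcript and not positions of reads, so it is not known whether the reads lay before or after the stem-loop.

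The share in long models was also high. Transcripts longer than 800 nt held 63.0%, 60.3% and 73.5% of the members' counts in replicates 1, 2 and 3 (65.6 ± 6.96%), and 55.3% on average without Hist3h2a. By type this share was 89.9 ± 3.39% for H1, 68.6 ± 6.01% for H2B, 65.9 ± 7.29% for H3, 62.3 ± 12.6% for H2A and 41.7 ± 3.43% for H4. H4 was the lowest type in each library and H1 the highest. The H1 share rests on Hist1h1c, Hist1h1d and Hist1h1e, whose models extend 840, 4884 and 1153 bases past the stem-loop. Among H2B genes, Hist2h2be had 33, 34 and 57 counts in a model of 2620 nt in which no stem-loop was found, and Hist1h2bc had 26.66, 27.81 and 23.91 counts over models of up to 1156 nt. Hist1h2be, also H2B, had 60.29, 31.26 and 55.16 counts in replicates 1, 2 and 3. Its protein-coding models held 16.72, 13.21 and 5.1 of these. Hist2h4, Hist1h4d and Hist1h4c, all H4, extend 1257, 770 and 454 bases past theirs. Hist1h3d and Hist1h3e, which encode H3, and Hist2h3c2 extend 752, 369 and 377 bases past theirs.

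**Figure D3:**
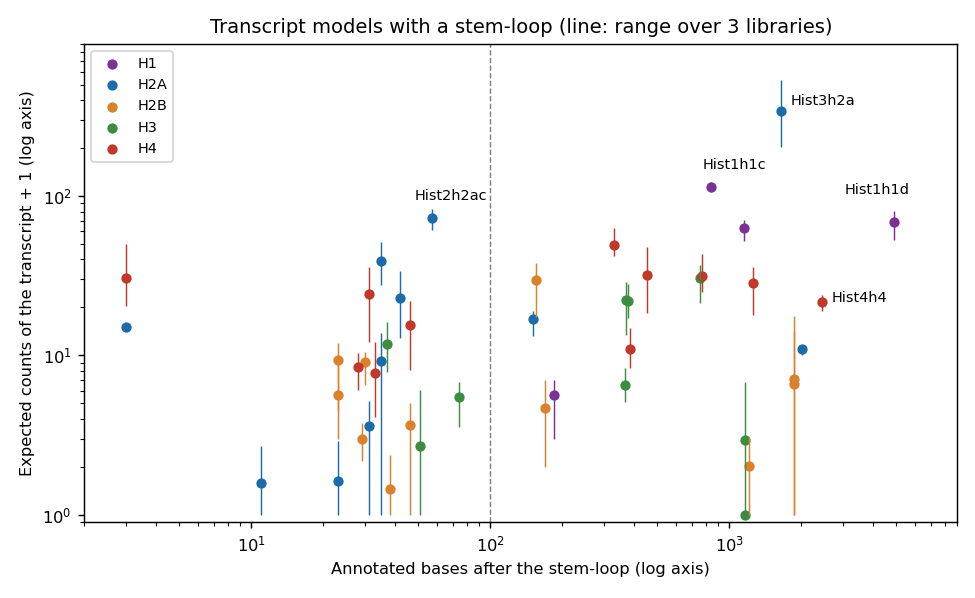
Each point is an annotated transcript model with a stem-loop, placed by the annotated bases that follow the stem-loop (log axis) and by its mean expected counts + 1 over 3 libraries (log axis), with a line from the lowest to the highest library. The dashed line marks 100 bases. Hist3h2a and the H1 genes Hist1h1c and Hist1h1d lie to the right of it, and Hist2h2ac is the highest point on the left.

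The quantifications differed for some members, with long models and short ones among them. Hist4h4, whose model runs 2445 bases past the stem-loop, had 18, 21 and 23 expected counts in the main tables and 105, 121 and 136 estimated counts in the second set. Relative to the library totals the second set was 3.51 times higher. Hist1h2bq was 2.73 times higher and Hist1h1d 1.57 times higher by the same measure. Hist1h2bh, with a model of up to 1679 nt, and Hist1h2bf, of 461 nt, were at the floor of 3 counts in the main tables and above it in the second set, as given above. The median of this ratio over 64 members with counts was 0.799. For Hist1h1d the second set gave 180, 167 and 185 counts. Hist2h2ac also had more counts in the second set, 153, 190 and 107, at 16, 19.1 and 17.7 TPM, and it was the highest member by mean TPM in both sets.

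Copies of a histone gene share much of their sequence, and this limits what the value of any member shows. The share of a member's 31-base words, read on either strand, that also occur in another gene had a median of 60.2% over the 67 members. It was 3.82% for H1, 47.9% for H4, 57.4% for H2B, 63.1% for H3 and 77.1% for H2A, and 41 members shared more than 50%. Linking members that each share over 50% of their words with the other gave 7 groups with 28 members. Hist1h4m and Hist1h4n, which encode H4, share 91.7% of the words of Hist1h4m. Hist1h4m had 49.09, 19.56 and 20.28 counts and Hist1h4n had 11.23, 35.14 and 23.42 counts in replicates 1, 2 and 3. Replicate 1 was the highest for Hist1h4m and the lowest for Hist1h4n, while their sums were 60.32, 54.7 and 43.7 counts. In CPM the sum had a coefficient of variation of 4.68%, against 48.4% and 49.6% for the single genes.

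Other groups are given by their sums. Every 31-base word of Hist2h2aa2 occurs in Hist2h2aa1, and the pair summed to 38.46, 50.17 and 49.87 counts, of which Hist2h2aa1 was given 11.63, 0 and 12.92. Their reads cannot be told apart, so the 0 in replicate 2 is no sign that the gene was silent. Every word of Hist2h2aa1 also occurs in Gm20633, an antisense gene across it with 47.17, 50.56 and 76.82 counts, and the antisense gene Gm20632, with 47.75, 59.8 and 60.01 counts, lies across Hist2h2aa2. Without a strand setting the sum of the pair cannot be told apart from reads of these genes. The group of 10 H2A genes that holds Hist1h2ad and Hist1h2ap summed to 62.54, 50.62 and 34.24 counts, with a coefficient of variation of 17.0% in CPM. For Hist1h2bq and Hist1h2br, which encode H2B, the sum varied by 41.6%, close to the 41.8% and 49.7% of the single genes. Levels of single members in these groups are uncertain.

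**Figure D4:**
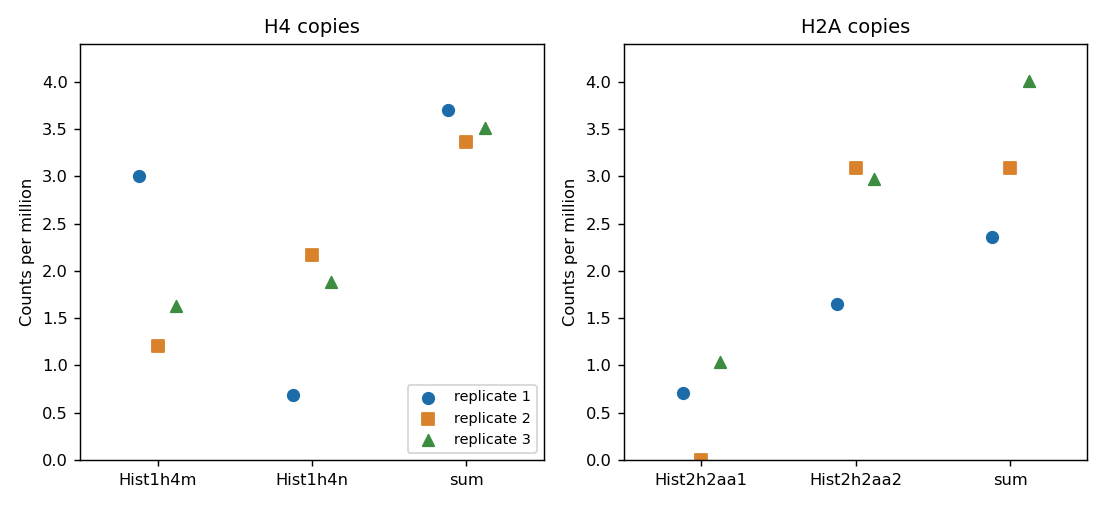
CPM of the H4 copies Hist1h4m and Hist1h4n (left) and of the H2A copies Hist2h2aa1 and Hist2h2aa2 (right), with their sums, in each library. The H4 sum lies between 3.37 and 3.70 CPM although the single genes change places between replicates 1 and 2; the H2A sum lies between 2.36 and 4.01 CPM.

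Many H2A and H2B genes are arranged head to head and start from the same short stretch of DNA, and their levels were unequal. There were 12 such pairs with start sites 176 to 306 bp apart. The H2A gene was higher in TPM in all 3 libraries in 4 pairs, and the H2B gene in 4. The promoter windows of genes in these pairs, and of 2 others the results turn on, are shown 5′ to 3′ on the strand of the gene, from 250 bases before to 50 after the RefSeq start on GRCm38.p6. Capitals mark matches on either strand to the TATA element TATAAA, to the box CCAAT that many promoters hold, and to TTTGCAT, the core of the octamer element known from H2B promoters.
Hist2h2ac, chr3:96220831-96221130, minus strand: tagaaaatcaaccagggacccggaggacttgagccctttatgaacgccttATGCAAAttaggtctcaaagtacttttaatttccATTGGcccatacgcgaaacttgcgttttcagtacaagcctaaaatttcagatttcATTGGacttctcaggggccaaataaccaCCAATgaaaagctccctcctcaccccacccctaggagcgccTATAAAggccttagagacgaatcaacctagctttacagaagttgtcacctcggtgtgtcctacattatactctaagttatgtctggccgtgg
Hist1h2ae, chr13:23571171-23571470, minus strand: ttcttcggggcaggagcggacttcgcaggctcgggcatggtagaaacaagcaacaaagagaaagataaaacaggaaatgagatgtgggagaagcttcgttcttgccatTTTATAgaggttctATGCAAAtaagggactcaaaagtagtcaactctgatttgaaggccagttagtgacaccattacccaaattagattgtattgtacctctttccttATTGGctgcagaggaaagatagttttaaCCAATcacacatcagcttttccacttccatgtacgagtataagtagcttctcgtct
Hist3h2a, chr11:58954435-58954734, plus strand: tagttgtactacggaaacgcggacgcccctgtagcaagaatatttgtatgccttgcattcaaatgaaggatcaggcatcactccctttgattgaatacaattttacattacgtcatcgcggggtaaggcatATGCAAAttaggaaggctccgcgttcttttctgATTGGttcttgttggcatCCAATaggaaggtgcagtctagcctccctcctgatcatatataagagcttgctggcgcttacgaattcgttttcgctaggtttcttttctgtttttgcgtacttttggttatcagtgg
Hist1h4i, chr13:22041313-22041612, minus strand: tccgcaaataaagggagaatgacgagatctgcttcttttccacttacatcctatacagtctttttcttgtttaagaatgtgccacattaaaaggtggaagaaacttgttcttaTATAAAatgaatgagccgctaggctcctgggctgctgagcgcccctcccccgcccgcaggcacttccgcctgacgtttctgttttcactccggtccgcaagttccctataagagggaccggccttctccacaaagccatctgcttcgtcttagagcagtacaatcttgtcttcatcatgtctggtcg
The window of Hist2h2ac reaches past the start of its partner Hist2h2be, 239 bp away, and that of Hist1h2ae reaches past the start of Hist1h2bg, 176 bp away, so each holds the whole stretch between the starts. A match is a description and not a site.

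Hist2h2ac had 7.85, 14.07 and 15.71 TPM in replicates 1, 2 and 3, and Hist2h2be, across the 239 bp, had 0.49, 0.67 and 1.73 TPM. The H2A gene was higher in each library. In counts the pair was closer, at 72, 81.99 and 60 against 33, 34 and 57, since the Hist2h2be model is 2620 nt long. Hist1h2ae had 1.23, 1.26 and 2.84 TPM and Hist1h2bg 3.10, 2.08 and 6.49 TPM, with H2B higher in each library. Hist1h2bc, at 1.44 ± 0.450 TPM, was above Hist1h2ac, at 0.223 ± 0.0651 TPM, 251 bp away, in each library. Hist1h2ap was above Hist1h2br, 236 bp away, with 2.95 ± 1.35 against 0.487 ± 0.332 TPM. In counts the order turned in replicates 2 and 3, with 13.18, 14.7 and 14.25 for Hist1h2ap against 11.18, 17.13 and 23.01 for Hist1h2br. The protein-coding models of Hist1h2br held 0 counts in each library, so all of its counts lay on its other transcripts. Hist1h2ad was above Hist1h2bf, 185 bp away, with 2.91 ± 0.265 against 0.400 ± 0.0458 TPM. In the second set of tables the same gene of each of these 5 pairs had the higher mean TPM, but the gap between Hist1h2ad and Hist1h2bf shrank to 3.32 against 2.10 TPM. Hist1h2ap, Hist1h2br, Hist1h2ad and Hist1h2bf belong to the groups of near-identical copies, so the levels of those 2 pairs are uncertain. The other pairs share sequence too. Of the 31-base words, 64.1% of those of Hist2h2ac, 56.3% of Hist1h2bg and 47.9% of Hist1h2ae occur in another gene. For Hist1h2bc, Hist1h2ac and Hist2h2be this share was 33.5%, 16.9% and 2.82%.

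**Figure D5:**
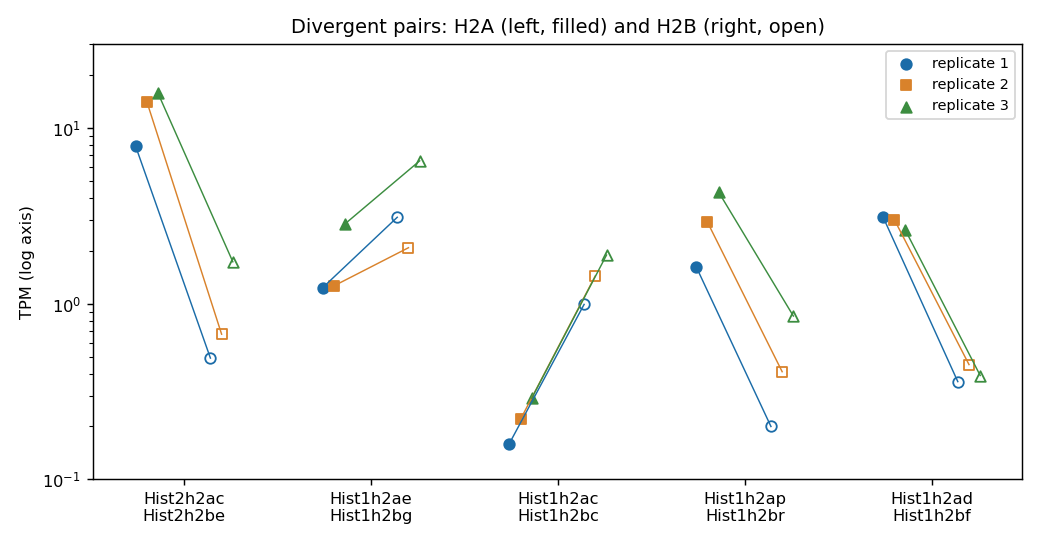
TPM on a log axis of the 5 divergent pairs with the most summed counts, with the H2A gene on the left (filled) and the H2B gene on the right (open) of each pair and a line for each library. Lines fall from H2A to H2B in 3 pairs and rise in 2, in the same direction in every library.

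CCAAT was in every matched window of the other types and in few of H4. Windows were matched for 62 of 67 members by gene ID, and the start lay within 50 bp of the GENCODE start in 52. CCAAT was in 53 of 62 windows, or 85.5%, against 37.4% of all 32851 windows. It was in all 50 windows of H1, H2A, H2B and H3 genes and in 3 of 12 windows of H4 genes. Hist1h4i is shown as an H4 window without it. TATAAA was in 35 of 62 windows, or 56.5%, against 13.6% of all windows, with H4 at 8 of 12 and H3 at 4 of 10. TTTGCAT was in 14 of 62, or 22.6%, against 4.63%, and 7 of these were H2A, 6 were H2B and 1 was H4. The windows of head-to-head genes cover the same bases, and these 14 windows held 11 separate positions, of which 3 lay in both windows of a pair (Hist1h2aa and Hist1h2ba, Hist1h2ae and Hist1h2bg, Hist1h2ah and Hist1h2bk). TATAAA had 6 such shared positions and CCAAT 35. None of the 6 H1 or 10 H3 windows held TTTGCAT. A window without a match says only that these letters are not in it.

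Last, the members were compared between libraries with the only labelled quantity that differs, the amount of starting RNA. With 1 library per amount, the amount cannot be told apart from the library, and 1 residual degree of freedom is left. A slope on log2 of the amount was fitted with edgeR's quasi-likelihood test over 13985 genes with Benjamini-Hochberg adjustment. Of 67 members, 26 passed the filter on low counts, and 0 of them passed an adjusted p of 0.05, against a background of 1.14% (160 genes). At an unadjusted p under 0.05 there was 1 member, against 6.97% of all genes tested (975 genes). This was Hist1h4n, with a slope of -0.91 (SE 0.30) on the log2 scale per doubling and an adjusted p of 0.202. Its near-identical copy Hist1h4m had a slope of 0.55 (SE 0.28) and an adjusted p of 0.744. The copies had slopes of opposite sign. The slope of Hist3h2a was 0.11 (SE 0.25), with an adjusted p of 1.00, and its highest library had the middle amount. The median slope of the 26 members was -0.14, and of all genes tested 0.00. DESeq2 tested 29 members and called 0, against 0.566% of the genes it tested, with 0 at an unadjusted p under 0.05, against 2.98%.

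The genes around histone supply gave levels as follows. Of 20 genes that make or degrade histone mRNA, 16 were at or above 1 TPM in every library, and the median was 5.04 ± 1.76 TPM. Tut7, a uridylyltransferase, had 78.3, 92.6 and 118 TPM, Srrt, which links the cap-binding complex to RNA processing, had 65.7, 101 and 123 TPM, and Cpsf1, of the cleavage complex, had 22.3, 41.7 and 38.6 TPM. Rnu7, the U7 snRNA gene, was listed at 0 in the 3 libraries. Of the 18 S-phase genes 13 reached that level, with a median of 2.64 ± 0.944 TPM. Pcna, the replication clamp, led with 17.9, 27.2 and 22 TPM, Mki67, a marker of cycling cells, had 9.38, 6.56 and 9.30 TPM and Cdk2 had 5.24, 7.58 and 11.7 TPM, while Cdc6 was the lowest at 0.51, 0.41 and 0.38 TPM.

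Histone genes outside the replication-dependent set were far higher at their upper end. H3f3b, which encodes the replication-independent H3.3, had 197, 255 and 347 TPM in replicates 1, 2 and 3, and in each library this exceeded the highest member. Cenpa, the centromeric H3, had 53.9, 53.0 and 137 TPM, and H2afy, which encodes macroH2A, had 45, 52.7 and 67.4 TPM. Of the 12 genes of this list 5 were at or above 1 TPM in every library, and H1fx and H2bfm were at 0. Of 7 histone chaperones 6 reached 1 TPM in every library, led by Hira, which deposits H3.3, at 12.9, 15 and 20.4 TPM, Nasp at 11.1, 15 and 14.7 TPM and Asf1a at 9.90, 8.60 and 21.7 TPM. Asf1b was the lowest, at 0.02, 0 and 0.65 TPM. In the slope fit, 0 of 19 tested processing genes, 0 of 17 S-phase genes, 0 of 10 other histone genes and 0 of 6 chaperones passed, and at an unadjusted p under 0.05 there were 1, 4, 0 and 1, against the 6.97% of all genes tested.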

How the data were processed

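RNA of the chromatin fraction was measured in 3 libraries of 1 group. The authors used assembly mm10 and annotation M21 and did not pool replicates, per the text listing deposited with each library. The deposited gene and transcript tables hold expected counts and TPM, scaled by the authors over all entries, and the bounds of a credibility interval of TPM, a deposited signal pair that was not used in the text. A second deposited set holds estimated counts and TPM made without an alignment file. No source used here names the tools, their versions or the strand setting.

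All 55536 gene IDs matched GENCODE M21. Entries without a gene name held 1.08%, 0.299% and 0.332% of the counts and stayed out of the tests. Shares, medians and SDs were computed per library, as were 31-base words, stem-loops and promoter motifs (RefSeq windows) from sequence. Counts were rounded for edgeR 4.0.16 in R 4.3.3, with TMM factors and filterByExpr. The standard error of a slope was taken from the F statistic. The test was tested on simulated data. DESeq2 1.42.0, Python 3.11.15, numpy 2.4.6, pandas 2.3.3, scipy 1.17.1 and matplotlib 3.10.9 were also used.

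The members and lists were chosen with earlier results of these data known. Named members had a mean of at least 30 counts, were the highest or lowest by TPM of a type or cluster, or had a mean of at least 10 counts with at least 50% of them in transcripts longer than 800 nt. The 5 divergent pairs with the most counts, and the 3 highest and the lowest genes of each other list, were also named. A p-value compares a slope with the residual spread of the libraries around it, estimated with information from all genes tested. That spread may be technical. Of the coding genes near Hist3h2a, which were not all highest in the same library, those that do not overlap it are not reported here.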

Additional observations from a re-analysis of the deposited data

How the results depend on the processing

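Of 62 alternatives over 12 results, 53 kept their value within the spread between libraries or, for counts, within 1.5 times. With each replicate left out, the median TPM over members ran from 0.885 to 1.11, the medians by type from 1.09 to 1.39 (H1), 0.87 to 1.20 (H2A), 0.51 to 0.66 (H2B), 0.923 to 1.29 (H3) and 1.94 to 2.25 (H4), the members' share of counts from 0.00834% to 0.0105% and their share in transcripts over 800 nt from 61.7% to 68.2%. The 22 members at or above 1 TPM became 34 at 0.5 TPM and 47 when TPM was rescaled over protein-coding genes. They were 23 to 31 with each replicate left out. The share of protein-coding genes at these settings is not given here, so these counts show no change relative to other genes. The H2B median rose to 0.929 TPM in the second set of tables and 0.878 with posterior mean TPM. The difference Hist2 minus Hist1 reversed to -0.43 among members with 10 or more counts in a library, and ran from 0.06 to 0.80 with each replicate left out. The members' share was 0.0152% of the counts of protein-coding genes. Without Hist3h2a, an alternative chosen after seeing the data, it was 0.00720%, and the share in transcripts over 800 nt was 55.3%. With words of 75 bases the shared sequence had a median of 42.4%. The slope test called 0 members without TMM factors, without the filter, in the second set and with DESeq2. Leaving out a replicate leaves 2 libraries and no residual degrees of freedom, so that alternative gave slopes and no test, with medians of -0.13 to -0.06 over the members. Counts of 3 or fewer in every library limit 12 members, and no untreated group, read positions or strand were at hand.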
